A study of Mus musculus with 6 samples.

Results

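A set of genes used as markers of injured or progenitor-like kidney tubule cells were followed in mouse primary renal tubular epithelial cells (TECs) after knockdown of Sox9. They were Havcr1, Lcn2, Spp1, Clu, Vcam1, Cd24a and Prom1, chosen by name, and all 7 were among the 30315 genes with FPKM values. FPKM is the number of reads on a gene scaled to exon length and to library size. The 6 RNA-Seq libraries came from C57BL/6 kidney cells. In 3 of them the cells had received siSox9, a small interfering RNA (siRNA) against Sox9, and in the other 3 the control siRNA siNC. Every culture was transfected 12 h before hypoxia/reoxygenation (H/R), which was 6 h at 1.0% oxygen in glucose-free medium and then 18 h of reoxygenation in complete medium. No library here came from cells without H/R, so the values compare siRNAs after injury and do not show what the injury itself changed. One siRNA targeted Sox9, so that loss of Sox9 and any other action of that siRNA cannot be told apart.

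When a tubule is injured, surviving epithelial cells lose features of the mature segment, and a characteristic group of genes is switched on. Havcr1 encodes kidney injury molecule-1, a receptor for dying cells. Lcn2 encodes the iron-siderophore carrier NGAL, Spp1 the secreted integrin ligand osteopontin, and Clu the secreted chaperone clusterin. Cd24a and Prom1 encode the surface proteins CD24 and CD133, by which scattered progenitor-like tubule cells are recognised. Vcam1 encodes an adhesion molecule that marks tubule cells that fail to repair.

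The knockdown and the identity of the cells were checked first. Sox9 lay between 8.61 and 9.07 FPKM with siSox9 and between 25.6 and 26.5 FPKM with siNC, so that 34.2% of its control level was left. Recovered read totals were 23893197 to 25725743 per library, and 3 reads on 1 kb of exon correspond to 0.117 to 0.126 FPKM. All 6 markers of epithelium (Epcam, Cdh1, Cdh16, Krt8, Krt18 and Pax8) were above 1 FPKM on average and summed to 3755 to 3913 FPKM with siSox9 and 3592 to 3794 with siNC. Of these Cdh16 was higher with siSox9, at 129.7 ± 0.424 against 100.9 ± 2.84 FPKM (SD, n = 3 each, limma adjusted p = 0.000307), and the other 5 did not pass. Most markers of mature tubule segments were low: of 7 matched proximal tubule markers only Lrp2 averaged 1 FPKM or more, and Slc34a1 stayed below 0.01 FPKM on average in both groups. Of 5 matched markers of the loop of Henle and distal tubule 1 reached that level (Cldn16), as did 1 of 7 collecting duct markers (Hsd11b2). These 2 were expressed, Cldn16 at 4.36 FPKM with siSox9 and 6.67 with siNC on average, and Hsd11b2 at 10.02 and 10.8. Macrophage markers were present, at 99.3 to 113 FPKM summed over 7 genes with siSox9 and 108 to 118 with siNC. All 14 genes of a proliferation list were lower with siSox9 by limma, with a median log2 fold change of -0.63 against -0.01 over all 12009 genes tested. Mki67, Ccna2 and Top2a, the 3 with the smallest adjusted p, had -0.78, -0.75 and -0.71, and the part of this shift in the marker values was not tested.

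The 7 genes divided into 3 that were higher with siSox9, 3 that were lower and 1 that did not pass the test. Lcn2, Spp1 and Havcr1 rose, whereas Vcam1, Cd24a and Prom1 fell, and Clu, the most abundant of them, had a difference close to 0. The test was limma on log2(FPKM + 1) over genes averaging 1 FPKM or more, with Benjamini-Hochberg adjusted p under 0.05. Across the 12009 genes tested, 30.4% passed (12.8% higher and 17.6% lower), against 6 of these 7. The 7 were chosen with earlier results of these data known, so this count is a description of them. The deposited values gave 1532 higher and 2118 lower genes, and after median-centring of the libraries these counts were 1959 and 1765. In all 7 genes the 3 siSox9 libraries lay entirely above or entirely below the 3 siNC libraries, which was also the case for 46.3% of all genes tested (20.2% higher and 26.1% lower). An exact two-sided permutation test of 3 against 3 libraries cannot give p below 0.1, and it gave 0.1 for each of the 7. In these bulk libraries fewer cells of a type and less RNA per cell cannot be told apart.

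**Figure D1:**
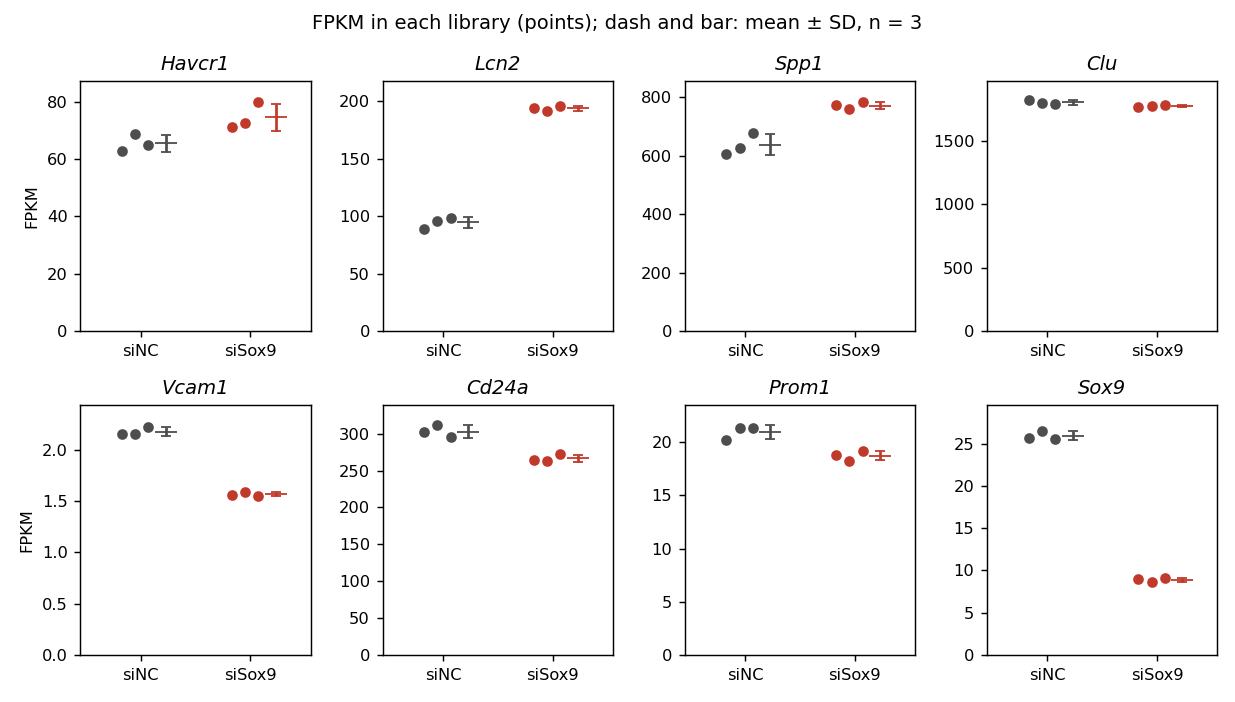
FPKM (vertical axes, from 0) of the 7 marker genes and Sox9 in each siNC (grey) and siSox9 (red) library, with the mean ± SD of 3 libraries beside the points. Lcn2 goes from 94.7 to 194 FPKM on average, a ratio of 2.05, Spp1 from 637 to 772 FPKM, a ratio of 1.21, and no pair of groups overlaps, the closest being Clu.

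Lcn2 showed the largest proportional change of the 7. NGAL binds bacterial siderophores, is released by injured distal and proximal tubule cells, and is measured in urine as an early sign of kidney injury. The gene (ENSMUSG00000026822) lies on chromosome 2 at 32384633 to 32388252 on the - strand (GRCm38), with 2623 bases of exon. Lcn2 had 194, 192 and 196 FPKM in siSox9 replicates 1, 2 and 3, and 89.1, 96.1 and 98.9 FPKM in siNC replicates 1, 2 and 3. Every siSox9 library thus held about the same level, 93.2 FPKM or more above the highest siNC library. The means were 194 ± 2.06 and 94.7 ± 5.09 FPKM (SD, n = 3 each), a ratio of 2.05. The log2 fold change was 1.03 (standard error 0.04, 95% interval 0.93 to 1.13, adjusted p = 4.82e-05 from limma), the ninth largest rise among the 12009 genes, and only 0.175% of them changed by more in either direction. The recovered reads were 12300 to 13097 with siSox9 and 5800 to 6448 with siNC. Neutrophils also store NGAL, and 5 of 8 neutrophil markers, a list added after the rise of Lcn2 was known, were matched in the table. Ngp and S100a8 were at 0 in every library, and the 5 together summed to 0.404 to 1.09 FPKM with siSox9 and 0.497 to 0.641 with siNC. The part of neutrophils in the value of Lcn2 was not tested.

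Spp1 was the second of the genes that rose. Osteopontin is a phosphorylated matrix and urine protein made by injured tubule cells and by macrophages. Spp1 (ENSMUSG00000029304) lies on chromosome 5, 104435118 to 104441050, + strand, with 1648 bases of exon. Spp1 had 773, 760 and 782 FPKM in siSox9 replicates 1 to 3, and 607, 627 and 677 FPKM in siNC replicates 1 to 3. The siSox9 libraries differed little from each other, and the spread was wider among the siNC libraries, of which replicate 3 was the highest. The means were 772 ± 11.3 and 637 ± 35.8 FPKM (SD, n = 3 each), and the log2 fold change was 0.28 (standard error 0.04, 95% interval 0.17 to 0.38, adjusted p = 0.00401 from limma). This was a smaller change than that of Lcn2 on the log scale, but a larger one in FPKM, at 135 against 99.5. Of the 7 macrophage markers 6 were tested and none passed, and their summed levels, given above, overlapped between the groups. Spp1 shares 309 bases of exon with Gm42793 on the same strand, which had 22 to 35 recovered reads per library beside 24851 to 32783 on Spp1. Of the transcript stretches of 50 bases of Spp1, 11.59% are shared with Gm42793. How reads in shared stretches were assigned is not known.

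Havcr1 rose least of the 3. Kidney injury molecule-1 is nearly absent from the healthy tubule, and it lets surviving epithelial cells take up apoptotic neighbours. Havcr1 (ENSMUSG00000040405) lies on chromosome 11, 46735080 to 46779578, + strand, with 2311 bases of exon. Havcr1 had 71.2, 72.6 and 79.9 FPKM in siSox9 replicates 1 to 3, and 62.6, 68.6 and 65.1 FPKM in siNC replicates 1 to 3. The groups were separated by 2.54 FPKM only, less than the SD within either group, and siSox9 replicate 3 stood above the rest. The means were 74.6 ± 4.66 and 65.4 ± 3.01 FPKM (SD, n = 3 each), a ratio of 1.14, and the log2 fold change was 0.18 (standard error 0.05, 95% interval 0.06 to 0.31, adjusted p = 0.0366 from limma). Its coefficient of variation was 6.25% with siSox9 and 4.61% with siNC, where counting error at its 3594 to 4410 reads is 1.53% and 1.64%. The call rested on each of several libraries: without siSox9 replicate 2 or 3 the log2 fold change was 0.20 or 0.13 (adjusted p = 0.0726 and 0.0794 from limma), and without siNC replicate 1 or 3 it was 0.15 or 0.18 (adjusted p = 0.0776 and 0.0975 from limma).

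Of the relatives of Havcr1 in the same receptor family, Timd2, a mouse receptor for H-ferritin, was listed at a low level. It had 100, 99 and 99 recovered reads in siSox9 replicates 1 to 3 and 46, 63 and 66 in siNC replicates 1 to 3, and the groups did not overlap. At a mean of 1.15 ± 0.0417 and 0.683 ± 0.130 FPKM (SD, n = 3 each) it was under the minimum for the test, and in limma with no such minimum its log2 fold change was 0.35 (adjusted p = 0.0467). Havcr1 shares 4.6% of its transcript stretches of 50 bases with Timd2 and Gm4926, so part of the reads could belong to either gene. Havcr2, the receptor TIM-3 of immune cells, had 1.87 ± 0.255 and 1.78 ± 0.0959 FPKM (SD, n = 3 each) and did not pass (adjusted p = 0.694 from limma).

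The sequence around the transcription starts is shown for the 3 genes that rose, to let their letters be compared. RefSeq promoters of 300 bases, 250 before and 50 after a start on GRCm38.p6, were matched for 4 of the 7 genes (Lcn2, Spp1, Havcr1 and Prom1). They were searched on both strands for 2 core sequences of SOX proteins, ACAAT and ACAAAG, and for a single form of the NF-kB site (GGGA, any 4 bases, CC). The sequences, 5′ to 3′ on the strand of the gene, are Lcn2 chr2:32387690-32387989 (- strand), Spp1 chr5:104434861-104435160 (+ strand) and Havcr1 chr11:46739973-46740272 (+ strand), each at the first start listed. Capitals mark a match to a SOX core, which in both places lies on the opposite strand.
Lcn2: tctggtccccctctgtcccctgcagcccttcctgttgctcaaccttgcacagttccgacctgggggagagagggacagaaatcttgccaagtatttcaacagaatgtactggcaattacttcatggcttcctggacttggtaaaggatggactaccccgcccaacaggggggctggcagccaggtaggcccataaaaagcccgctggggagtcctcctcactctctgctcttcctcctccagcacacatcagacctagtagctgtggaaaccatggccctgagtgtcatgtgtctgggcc
Spp1: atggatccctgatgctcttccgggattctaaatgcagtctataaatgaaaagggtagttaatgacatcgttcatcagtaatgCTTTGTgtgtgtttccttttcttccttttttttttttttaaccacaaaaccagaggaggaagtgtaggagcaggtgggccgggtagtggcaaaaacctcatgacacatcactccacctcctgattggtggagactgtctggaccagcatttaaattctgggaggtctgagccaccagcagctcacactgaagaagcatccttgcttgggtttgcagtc
Havcr1: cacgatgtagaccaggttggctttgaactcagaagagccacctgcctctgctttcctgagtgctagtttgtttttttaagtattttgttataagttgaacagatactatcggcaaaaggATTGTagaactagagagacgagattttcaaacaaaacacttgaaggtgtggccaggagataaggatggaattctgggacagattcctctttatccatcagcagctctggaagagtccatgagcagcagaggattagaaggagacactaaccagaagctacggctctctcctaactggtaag
The Spp1 window holds 1 match to ACAAAG, beginning 168 bases before the start, and 18.7% of all 32851 promoters hold that core. The Havcr1 window holds 1 match to ACAAT, beginning 131 bases before the start, a core found in 31.0% of all promoters. Neither core is in the Lcn2 window or in either Prom1 window. The second Spp1 window holds ACAAAG too, beginning 243 bases before its start, and the other Havcr1 windows hold neither core. The NF-kB form, present in 20.7% of all promoters, is in no window of the 4 genes, and other forms of that site were not searched.

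Clu, the fourth injury gene, was the most abundant of the 7 and the tenth most abundant of all genes tested. Clusterin is a secreted chaperone that binds misfolded proteins and is made in large amounts by stressed tubules. Clu (ENSMUSG00000022037) lies on chromosome 14, 65968483 to 65981547, + strand, with 3437 bases of exon. Clu had 1768, 1774 and 1786 FPKM in siSox9 replicates 1 to 3, and 1823, 1795 and 1792 FPKM in siNC replicates 1 to 3. All siSox9 libraries lay below all siNC libraries, but the gap was 5.62 FPKM. The log2 fold change was -0.02 (standard error 0.03, 95% interval -0.09 to 0.05, adjusted p = 0.622 from limma), and with TPM or median-centred values the difference had the opposite sign. Quantile normalization, which forces the most abundant genes of all libraries onto the same values, gave -0.24 and an adjusted p of 0.00758 from limma.

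Vcam1 was the least abundant of the 7 and fell by the largest proportion. VCAM-1 binds the integrin alpha4-beta1 of leukocytes and is made by activated endothelium as well as by a subset of tubule cells. Vcam1 (ENSMUSG00000027962) lies on chromosome 3, 116109949 to 116129688, - strand, with 8870 bases of exon. Vcam1 had 1.56, 1.59 and 1.55 FPKM in siSox9 replicates 1 to 3, and 2.15, 2.15 and 2.22 FPKM in siNC replicates 1 to 3. The libraries of a group were nearly equal, with coefficients of variation of 1.37% and 2.002%, below the counting error of 5.37% and 4.59% that their 328 to 490 reads allow. The mean with siSox9 was 72.1% of that with siNC, and the log2 fold change was -0.31 (standard error 0.05, 95% interval -0.43 to -0.18, adjusted p = 0.00491 from limma). The added 1 FPKM holds this value near 0 for a gene at such a level, and with limma voom on the recovered reads it was -0.47. The summed level of 5 endothelial markers (Pecam1, Cdh5, Kdr, Emcn and Tek) was also lower with siSox9, at 2.91 to 3.101 FPKM against 3.22 to 4.12. The 5 did not move together. Pecam1, Cdh5 and Emcn were lower on average with siSox9. Kdr was higher, at 0.509 against 0.418 FPKM, and so was Tek, at 0.122 against 0.0889. Of the 5 endothelial markers only Cdh5 averaged 1 FPKM or more and was tested, and it did not pass (adjusted p = 0.449 from limma). The part of this sum in the value of Vcam1 was not tested.

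Cd24a, which encodes a small, heavily glycosylated protein anchored in the membrane, was the third most abundant of the 7. Cd24a (ENSMUSG00000047139) lies on chromosome 10, 43578284 to 43584265, + strand, with 2580 bases of exon. It had 265, 263 and 272 FPKM in siSox9 replicates 1 to 3, and 302, 312 and 295 FPKM in siNC replicates 1 to 3. The lowest siNC library was 23.1 FPKM above the highest siSox9 library. The means were 267 ± 4.55 and 303 ± 8.36 FPKM (SD, n = 3 each), so 88.1% of the control level was left, and the log2 fold change was -0.18 (standard error 0.03, 95% interval -0.26 to -0.11, adjusted p = 0.00586 from limma). Cd24a shares 2.75% of its stretches of 50 bases with Gm6212.

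Prom1 fell by a similar proportion. CD133 spans the membrane several times and sits in protrusions such as microvilli. Prom1 (ENSMUSG00000029086) lies on chromosome 5, 43993620 to 44102032, - strand, with 7175 bases of exon. Prom1 had 18.8, 18.3 and 19.1 FPKM in siSox9 replicates 1 to 3, and 20.2, 21.35 and 21.33 FPKM in siNC replicates 1 to 3. The gap between the groups was 1.047 FPKM, wider than the SD of either group. The means were 18.7 ± 0.446 and 20.96 ± 0.664 FPKM (SD, n = 3 each), and the log2 fold change was -0.15 (standard error 0.04, 95% interval -0.24 to -0.07, adjusted p = 0.0171 from limma). This call was lost without siSox9 replicate 1 or 2 (-0.16 and -0.14, adjusted p = 0.0519 and 0.0699 from limma) and without siNC replicate 2 or 3 (-0.14 in both, adjusted p = 0.0549 and 0.0626 from limma). It was also lost with TPM, at -0.13 and an adjusted p of 0.0755 from limma. Prom1 shares 424 bases of exon with the antisense gene Gm16401, which had 3 to 19 recovered reads per library, against 3282 to 3803 on Prom1.

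**Figure D2:**
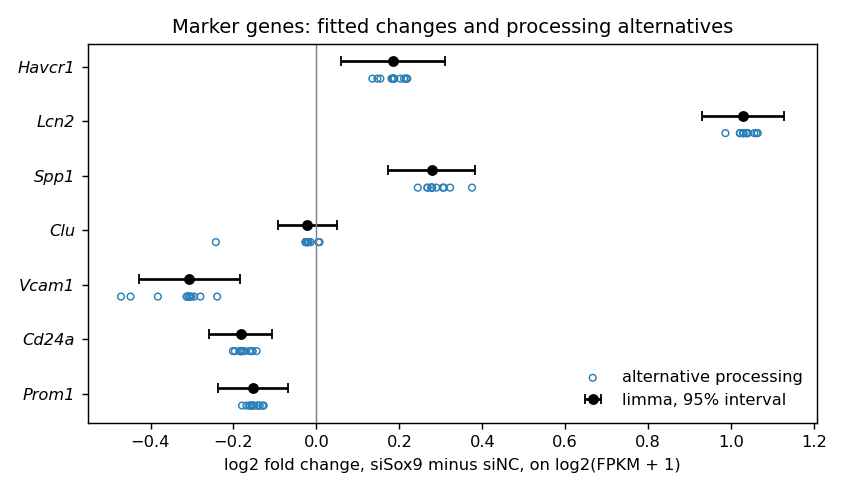
Log2 fold change (siSox9 minus siNC, horizontal axis) of each marker gene with limma's 95% interval (black), and the values under the alternative ways of processing (open circles). Lcn2 stands at 1.03, Spp1 and Havcr1 at 0.28 and 0.18, the 3 lower genes at -0.31 to -0.15, and Clu lies at 0, on either side of it depending on the scaling, with one circle at -0.24 from quantile normalization.

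The order of the levels was the same in both groups. It was Clu, Spp1, Cd24a, Lcn2, Havcr1, Prom1 and Vcam1, and in every library each gene was above the next. Clu made up 0.613% of the summed FPKM with siSox9 and 0.610% with siNC, and Spp1 0.266% and 0.215%. Havcr1, at rank 646 of the 12009 genes by level, and Prom1, at rank 2640, were well within the expressed range, whereas Vcam1 was at rank 10475. The spread between libraries was wider with siNC than with siSox9 in 6 of the 7 genes, all but Havcr1. The share of all genes with this pattern was not counted. Over all genes siNC replicate 1 stood apart from the other siNC libraries, as given with the processing, so this count is no trait of the 7. By size of the change, 28.7% of all genes tested changed by more than Havcr1, 15.0% by more than Spp1, 12.7% by more than Vcam1, 29.2% by more than Cd24a and 36.0% by more than Prom1, in either direction.

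**Figure D3:**
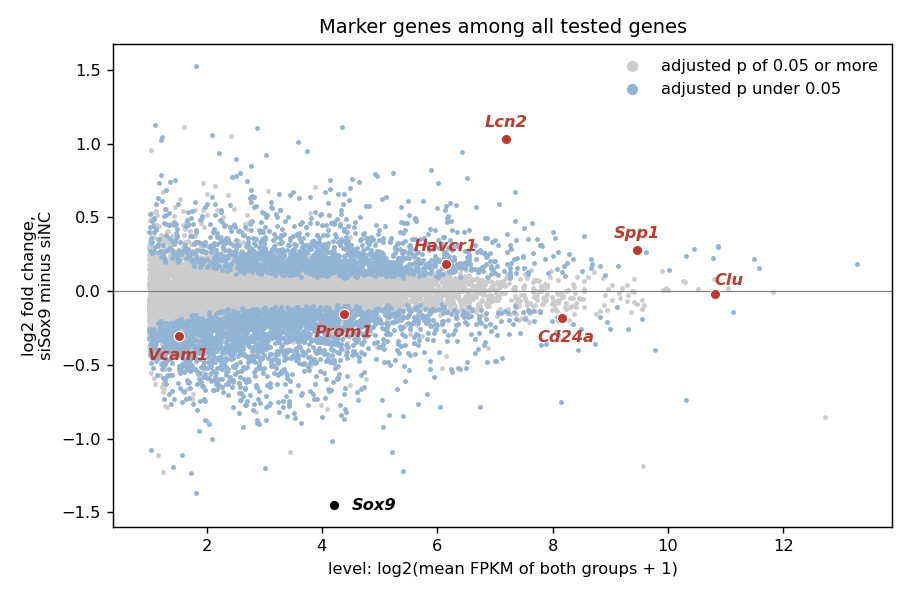
Log2 fold change (siSox9 minus siNC) of each of the 12009 genes tested against its level, with genes past the threshold in blue, the 7 marker genes in red and Sox9 in black. Lcn2, at 1.03, stands at the upper edge of the genes of its level, and the other 6 lie between -0.31 and 0.28, within the range of the remaining genes.

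Ratios of the genes within a library do not depend on how libraries are scaled to each other. Of the 21 pairs of the 7 genes, 19 had ratios that did not overlap between the groups (exact two-sided permutation p = 0.1 for each, the smallest possible). All 7 genes were already apart singly, as were 46.3% of all genes tested, so this count is a description of the 7. The ratio of Havcr1 to Lcn2 was 0.367, 0.378 and 0.407 in siSox9 replicates 1 to 3 and 0.703, 0.714 and 0.658 in siNC replicates 1 to 3. The injury genes therefore did not rise in proportion, and Lcn2 gained on both Havcr1 and Spp1. The ratio of Lcn2 to Spp1 was 0.252 ± 0.00110 with siSox9 and 0.149 ± 0.00402 with siNC (SD, n = 3 each). The 2 pairs whose groups overlapped were Havcr1 to Spp1, at 0.0966 ± 0.00510 and 0.103 ± 0.00667, and Cd24a to Prom1, at 14.2 ± 0.177 and 14.5 ± 0.572 (SD, n = 3 each). Exact two-sided permutation tests gave p = 0.2 and p = 0.6 for these. For a gene that rose against one that fell, the direction of the ratio follows from the single genes, and its size was, for Spp1 to Cd24a, 2.90 ± 0.0237 and 2.11 ± 0.163, and for Havcr1 to Prom1 3.98 ± 0.193 and 3.12 ± 0.0837 (SD, n = 3 each).

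**Figure D4:**
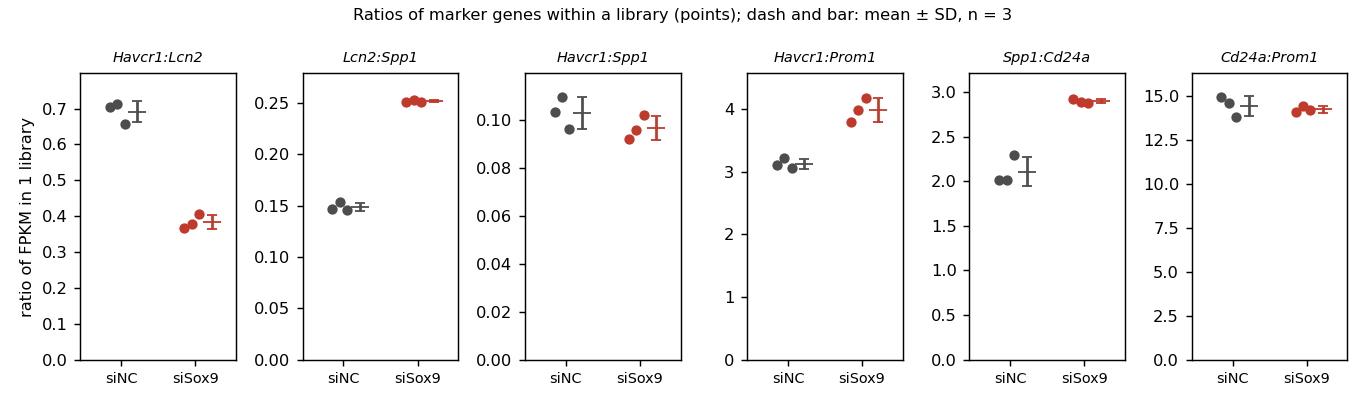
Ratio of the FPKM of 2 marker genes within each library (vertical axes, from 0), in siNC (grey) and siSox9 (red), with the mean ± SD of 3 libraries. The ratio of Havcr1 to Lcn2 falls from 0.692 to 0.384 and that of Lcn2 to Spp1 rises from 0.149 to 0.252, while the groups overlap for Havcr1 to Spp1 and for Cd24a to Prom1.

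Genes that encode binding partners or relatives of the 7 proteins moved in both directions. Of 20 such genes 13 were tested, with 3 higher and 3 lower, beside 12.8% and 17.6% of all genes tested, and their median log2 fold change was 0.03. Among receptors of osteopontin, Cd44 rose from 79.5 ± 2.55 to 96.4 ± 1.596 FPKM, the integrin subunit gene Itgb5 from 46.9 ± 2.198 to 60.4 ± 2.29, and Itgb1 from 980 ± 1.76 to 1083 ± 14.1 (SD, n = 3 each, siNC to siSox9). The call of Itgb1, at 0.15 on the log2 scale (limma, adjusted p = 0.00988), was lost with no filter (adjusted p = 0.208 from limma) and with quantile normalization (adjusted p = 0.0625 from limma). Itgb3, another integrin subunit of this group, fell from 16.9 ± 1.03 to 10.54 ± 0.698 FPKM (-0.63 on the log2 scale, limma adjusted p = 0.000461). Their common partner Itgav had 54.1 ± 1.499 FPKM with siNC and 53.5 ± 0.994 with siSox9 and did not pass (adjusted p = 0.724 from limma).

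The receptors of NGAL, by contrast, were low. Slc22a17 had 1.82 ± 0.384 FPKM with siNC and 1.67 ± 0.196 with siSox9, and Lrp2, the endocytic receptor megalin, had 2.13 ± 0.0853 and 2.41 ± 0.156 (SD, n = 3 each), and neither passed. Mmp9, whose protease forms a complex with NGAL, had a difference of 0.12 on the log2 scale (limma, adjusted p = 0.199). Siglecg, a receptor that recognises CD24, fell from 4.49 ± 0.403 to 2.59 ± 0.160 FPKM (SD, n = 3 each), which is -0.61 on the log2 scale (limma, adjusted p = 0.000768). Of the lipoprotein receptors that take up clusterin, Lrp8 fell by 0.19 on the log2 scale (adjusted p = 0.0297 from limma), and Vldlr had -0.14 (adjusted p = 0.0597 from limma). The call of Lrp8 was lost without any one siSox9 replicate and without siNC replicate 3 (adjusted p = 0.0687 to 0.0832 from limma), and with the replicate block (adjusted p = 0.0566 from limma). No filter, TPM and quantile normalization lost it too (adjusted p = 0.08102, 0.08105 and 0.08036 from limma). Itga4, which encodes the alpha chain of the VCAM-1 receptor, was at 0.193 ± 0.0317 FPKM with siNC and 0.158 ± 0.0207 with siSox9 (SD, n = 3 each) and was not tested.

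Of 21 other genes of the injury response, 18 were matched and 15 tested, and 5 were higher, 1 lower and 9 not past the threshold, with a median log2 fold change of 0.00. Across all genes tested, 12.8% were higher and 17.6% lower. Without siSox9 replicate 2 there were 4 higher and 0 lower, and the same counts were found with no filter. Median-centring gave 6 higher and 0 lower, whereas limma voom on recovered reads gave 4 higher and 3 lower. Cdkn1a, a cell cycle inhibitor, rose from 230 ± 2.68 to 295 ± 2.67 FPKM (SD, n = 3 each), which is 0.36 on the log2 scale (limma, adjusted p = 0.000192). Cxcl1, a neutrophil chemokine, rose by 0.47 on the log2 scale (adjusted p = 0.00224 from limma) at only 1.26 to 2.13 FPKM, and Plin2, a coat protein of lipid droplets, rose by 0.31 (adjusted p = 0.00387 from limma). The other 2 that rose were Hmox1, the haem-degrading enzyme, at 0.28, and Gdf15, a stress cytokine, at 0.19 (adjusted p = 0.00564 and 0.0166 from limma). Gdf15 was not called without siSox9 replicate 1 or 2 (adjusted p = 0.0614 and 0.0633 from limma), nor with no filter (adjusted p = 0.06775 from limma). Igfbp7 fell by 0.25 (adjusted p = 0.0363 from limma). That call was lost without any one siSox9 replicate and without siNC replicate 2 or 3 (adjusted p = 0.0551 to 0.106 from limma), and with the replicate block (adjusted p = 0.0703 from limma). No filter, median-centring and quantile normalization lost it as well (adjusted p = 0.1362, 0.05251 and 0.09441 from limma). Krt20, an injury keratin, had 40.8 ± 2.05 FPKM with siSox9 and 40.8 ± 0.443 with siNC (SD, n = 3 each) and did not pass.

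Of 18 further progenitor and dedifferentiation genes 13 were tested, with 1 higher, 5 lower and a median log2 fold change of -0.08, where 12.8% of all genes tested were higher and 17.6% lower. Without siSox9 replicate 1 or 3, or siNC replicate 2 or 3, the lower genes numbered 3. Ncam1, an adhesion molecule of the developing nephron, fell from 9.17 ± 0.0320 to 6.98 ± 0.187 FPKM (SD, n = 3 each), which is -0.35 on the log2 scale (limma, adjusted p = 0.000529). The filament gene Vim fell by 0.22 and the renal transcription factor gene Sall1 by 0.30 (adjusted p = 0.00187 and 0.00602 from limma). Sox11 and the integrin gene Itga6 completed the lower genes, at -0.21 and -0.12 (adjusted p = 0.0228 and 0.0388 from limma), and both calls were weak. Sox11 was lost without siSox9 replicate 1 or 3 and without siNC replicate 2 or 3 (adjusted p = 0.0535 to 0.0746 from limma). With no filter Sox11 was lost too (adjusted p = 0.0659 from limma). Itga6 was lost without any one of the 6 libraries (adjusted p = 0.0571 to 0.104 from limma) and with the replicate block (adjusted p = 0.0572 from limma). No filter, TPM, median-centring and quantile normalization lost Itga6 too (adjusted p = 0.0633, 0.325, 0.0765 and 0.0590 from limma). Krt7, a keratin of simple epithelia, was the exception and rose from 184 ± 1.28 to 236 ± 1.195 FPKM (SD, n = 3 each), which is 0.36 on the log2 scale (limma, adjusted p = 0.000168). Pax2, a marker of dedifferentiated tubule cells, had 10.7 ± 0.838 FPKM with siSox9 and 12.1 ± 0.811 with siNC (SD, n = 3 each) and did not pass (adjusted p = 0.0937 from limma). Six2 and Cited1, which define nephron progenitors of the embryo, stayed below 0.2 FPKM on average in both groups.

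**Figure D5:**
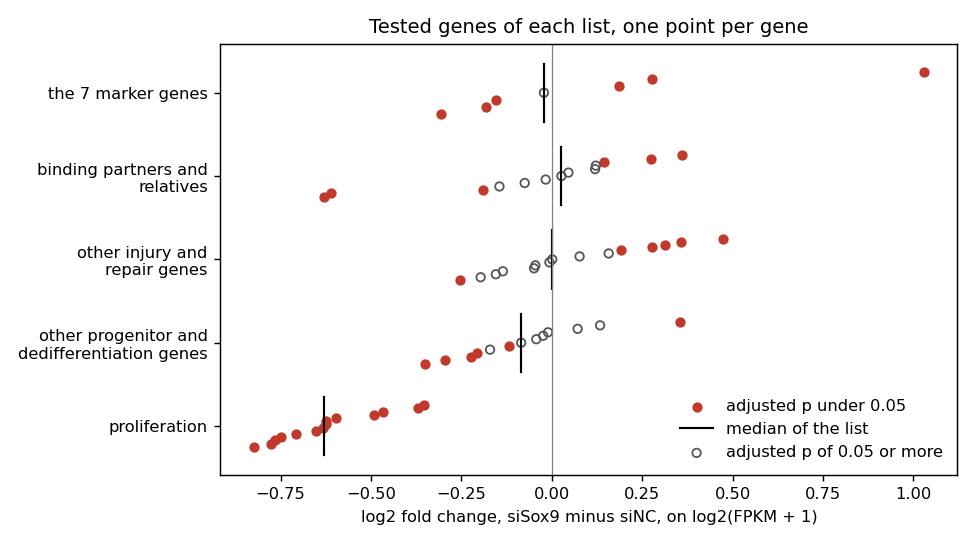
Log2 fold change (siSox9 minus siNC, horizontal axis) of the tested genes of each list, 1 point per gene, filled where adjusted p is under 0.05, with the median of the list as a black line. The 7 marker genes spread from -0.31 to 1.03, the 3 related lists lie on both sides of 0 with medians of 0.03, 0.00 and -0.08, and all 14 proliferation genes lie below 0.

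Other cell types were compared by the summed levels of their markers. Smooth muscle markers summed to 678 to 732 FPKM with siSox9 and 760 to 802 with siNC over 4 genes. Most of this sum was Acta2, at 686 FPKM with siSox9 and 727 with siNC on average. Acta2 overlapped between the groups and did not pass (adjusted p = 0.179 from limma). Cnn1 was lower past the threshold, at 24.55 ± 0.564 FPKM with siSox9 and 58.64 ± 1.31 with siNC (SD, n = 3 each). Its log2 fold change was -1.22 (adjusted p = 8.52e-06 from limma). Tagln was higher on average with siSox9 and did not pass (adjusted p = 0.578 from limma), and Myh11 was lower but not tested. Fibroblast markers summed to 6.00 to 7.36 and 7.38 to 8.43 FPKM over 5 matched genes, of which 1 was tested and did not pass, and Dcn was below 0.01 FPKM on average in both groups. Podocyte markers summed to 7.82 to 8.58 and 12.2 to 12.5 FPKM over 4 genes, with Nphs1 at 0 in every library and Podxl lower. The loop of Henle and distal tubule markers summed to 4.18 to 4.91 and 6.41 to 7.53 FPKM, nearly all from Cldn16, which was lower. The proximal tubule sum was 3.01 to 3.35 and 2.69 to 3.23 FPKM and the collecting duct sum 10.4 to 11.5 and 11.0 to 11.6, and both overlapped between groups. The part of these shifts in the values of the 7 genes was not tested.

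The genes whose profile over the 6 libraries lay closest to each marker were found by the root mean square distance of log2(FPKM + 1) values centred on each gene's mean, as a description. For Lcn2 they were Taldo1, an enzyme of the pentose phosphate pathway, and Isoc2b, at distances of 0.0480 and 0.0712, where the median distance to all genes was 0.530. Taldo1 had 113 ± 3.19 FPKM with siSox9 and 58.0 ± 2.83 with siNC (SD, n = 3 each). For Spp1 they were Gm5424 and Atp6v1h, for Havcr1 Twistnb and Arpc3, and for Clu Clic4 and Eed, at distances of 0.00539 to 0.0233. For Vcam1 they were Stk39 and Enc1, for Cd24a Rpl28 and Kctd3, and for Prom1 Cog6 and Csrnp1, at distances of 0.0128 to 0.0165. Distances for genes with small changes are small throughout, with medians to all genes of 0.0880 for Clu and 0.116 for Prom1, so near neighbours are frequent there.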

How the data were processed

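Mouse primary renal TECs were analysed by RNA-Seq in 6 libraries, 3 with siSox9 and 3 with siNC, named siCon in the paper. The authors deposited FPKM values for each gene and library, which were used with no further scaling. The submitters' processing notes name HISAT2 2.1.0, Bowtie2 2.2.3, TopHat2 and mm9 with no role, whereas 93.3% of the 30246 genes matched to GENCODE M21 have the GRCm38 position in the table, and GRCm38 is used here. The counter is not given in the sources used here. The library preparation is described only as the standard Illumina protocol, so whether reads were assigned by strand is not known. Columns were mapped by siRNA and replicate number, and the columns of the siRNA that is not the control were taken as siSox9. Nothing states that replicates were separate cell isolations, so p-values measure the spread between these libraries.

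The siRNAs were compared by limma 3.58.1 under R 4.3.3 (eBayes, trend) on log2(FPKM + 1) for genes averaging 1 FPKM or more. The threshold was a Benjamini-Hochberg adjusted p under 0.05, and the replicate number was left out of the model. Such fold changes understate the change of low genes. Intervals are for 95% confidence. Whole reads were recovered with GENCODE M21 exon lengths, and for 27948 genes all 6 values lay within 0.02 of a whole number. Between libraries of a group the mean chi-square per gene was 1.89 to 6.87, where sampling noise gives 1, so none was a copy of another. It was 6.57 and 6.87 for siNC replicate 1 against siNC replicates 2 and 3, and 2.66 between replicates 2 and 3. Among the siSox9 libraries it was 1.89 to 3.905. The fit was tested on simulated data with 200 genes changed. Limma called 10 of 43 genes tested at a fold of 1.2, 40 of 46 at 1.5, 45 of 46 at 2.0 and 39 of 39 at 0.5. Of 10154 unchanged genes it called 8. The simulated spread between libraries was set beforehand, so these shares need not hold for the real libraries. Same-numbered libraries did not deviate together, as described in the closing section. Python 3.11.15, pandas 2.3.3 and scipy 1.17.1 were used for the rest.

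The members and lists were chosen with earlier results of these data known. Genes named are the 7 markers, Sox9, the 3 genes of each list with the smallest adjusted p in each direction, and the 2 nearest genes by profile. Other list genes were named for their role after their values were seen. The neutrophil list was also added after the data were seen. Alternatives were quantile normalization, median-centring, conversion to TPM, a pseudocount of 0.1, filters at 5 FPKM and at none, limma voom on recovered reads, the replicate block, and leaving out each library.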

Additional observations from a re-analysis of the deposited data

How the results depend on the processing

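Lcn2, Spp1, Vcam1, Cd24a and Sox9 kept their direction and their call under every alternative in which they were tested. For Cd24a with TPM and Spp1 with no filter the call was close to the threshold (adjusted p = 0.04955 and 0.04056 from limma). Vcam1 fell under the minimum of 5 FPKM and has no value there. Havcr1 passed in 8 of 14 alternatives and Prom1 in 9 of 14, each always in the same direction. Havcr1 was not called with no filter (0.18) or with quantile normalization (0.15), and leaving out each library gave 0.13 to 0.22. Prom1 was not called with TPM (-0.13), and leaving out each library gave -0.18 to -0.14. Clu changed sign with TPM (0.0075) and with median-centred values (0.0047), and passed at -0.24 with quantile normalization. The genes past the threshold numbered 3650, and 2424 to 3654 when a library was left out, with 944 to 1565 of them higher (both the fewest without siSox9 replicate 2). The lower genes numbered 2118, but 1376 with a minimum of 5 FPKM, where fewer genes were tested, and 1332 with TPM. Where the cause is not given, it was not tested. With the replicate block 3262 genes and 6 of the 7 markers passed. The correlation of same-numbered libraries' deviations from their group means was 0.0649, -0.0504 and 0.00784 for numbers 1, 2 and 3. These correlations cannot show whether same-numbered libraries shared a cell isolation or batch. The block changed no call of the 7 markers. For Vcam1, with 328 to 490 reads, and Sox9, with 896 to 2649, counting error was at or above the spread between libraries, and Cxcl1 and Timd2 had fewer reads than Vcam1.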
